A study of Mus musculus with 9 samples.

Results

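Complement is the set of plasma and membrane proteins that marks particles for uptake by phagocytes, and 9 complement genes were followed here in mouse bone marrow-derived macrophages. They were chosen by name as components and receptors that macrophages express, namely C1qa, C1qb, C1qc, C4b, C3, Cfb, Cfp, C3ar1 and C5ar1, and each matched 1 of the 53379 genes measured. Bone marrow cells from 3 wild-type C57BL/6 mice were grown for 3 days with 10 ng/ml macrophage colony-stimulating factor (MCSF, also called CSF-1). For a further 4 days the control cells received 10 ng/ml MCSF alone, the IL-4 cells received the same MCSF with 10 ng/ml interleukin-4, and the IL-6 cells received it with 100 ng/ml interleukin-6. These doses are those of the series' design text and the treatment labels, and the days are those of the labels. The treatment protocol in the labels gives the interleukin-6 dose unclearly and names the IL-4 group otherwise. The study's methods give the same days and interleukin-6 dose, but 100 ng/ml interleukin-4. A figure legend of the study gives another cytokine dose and a shorter duration for its RNA-seq, so doses and duration are not settled. Each of the 3 groups held 3 RNA-seq libraries, numbered #1 to #3, and these numbers were taken as the mouse. All cells had been exposed to MCSF, so none served as an unstimulated baseline. No age of the mice is given in the labels, and the cultures are a model of marrow cells differentiated outside the animal.

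Complement is started by 3 routes, which meet at the cleavage of the central component C3. In the classical pathway the recognition molecule C1q, built from equal numbers of A, B and C chains, binds antibody or dying cells and C4 is cleaved. In the alternative pathway factor B joins deposited C3b to form the enzyme that cleaves more C3, and properdin holds that enzyme together. The small fragments C3a and C5a, released on cleavage, attract and activate myeloid cells through the receptors C3ar1 and C5ar1. The liver supplies most C3 and C4 of the plasma, whereas C1q is made largely by macrophages and dendritic cells, and properdin by myeloid cells.

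Values are FPKM, that is fragments per kilobase of exon and per 1000000 fragments of the library, which is a level per length and can be set side by side between genes. The libraries held between 29988160 and 39909571 fragments as read back from the smallest steps of the values. The 8 macrophage markers were above 0 in every library, and their summed level was 20498 to 23788 fragments per 1000000 in control, 7451 to 9071 in IL-4 and 25529 to 26884 in IL-6 libraries. Of these 8 markers 5 were called lower with IL-4, and 1 was called higher with IL-6. The 10 markers of granulocytes and their precursors moved as well, from 3853 to 6603 fragments per 1000000 in control to 1694 to 2662 with IL-4, where 9 of 10 were called lower, and 6551 to 9028 with IL-6, where 1 was called higher. The hepatocyte list, which marks the main producing cell of plasma complement, summed to at most 0.716 fragments per 1000000. Of its 8 genes, 6 to 7 were at 0 in each library, among them Alb, Ttr and Fgb in all 9. Apoa2 was above 0 in all 9, at 0.171 to 0.747 FPKM, and Apoa1 stood at 0.487 FPKM in Control #1. The dendritic cell list summed to 9.87 to 27.1 and the stromal list to 1.96 to 6.53 fragments per 1000000 over all libraries. A list of 16 Paneth and goblet cell genes divided the libraries into separate sets, with 31.8 to 47.9 fragments per 1000000 in the 3 control libraries and IL-4 #1, and 0.0990 to 0.245 in IL-4 #2, IL-4 #3 and the 3 IL-6 libraries. The skeletal muscle list ran the other way, at 2.84 to 12.4 fragments per 1000000 in the first set and 14.6 to 23.2 in the second. Of its 14 genes, 6 to 7 were at 0 in each library of the first set and 1 to 2 in each of the second. All control libraries were in the first set and all IL-6 libraries in the second, so the set and IL-6 treatment cannot be told apart except through the IL-4 libraries, and the values within each set are given below beside the results. In bulk RNA a smaller number of cells of a type and less RNA per cell cannot be told apart.

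A gene was called when its adjusted p was under 0.05 and its log2 fold change was at least 1 in size, in limma on log2(FPKM + 0.1) over 12824 genes with Benjamini-Hochberg adjustment. Fold changes on this scale understate the change of genes at low levels. All 9 complement genes passed the filter on low values, a mean of 0.5 FPKM over the 9 libraries. C4b and Cfb passed it only through the IL-6 libraries.

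Sequence upstream of the start site is shown for C3, the only gene called higher with IL-6 that had an entry in the promoter table, and for C1qb, the most abundant of the 9 genes. Both are RefSeq sequences on GRCm38.p6, covering the 250 bases before the start site, on the minus strand, at chr17:57228137-57228386 for C3 and chr4:136886201-136886450 for C1qb. Letters are lower case throughout because neither window held any of the 4 motifs searched.
C3: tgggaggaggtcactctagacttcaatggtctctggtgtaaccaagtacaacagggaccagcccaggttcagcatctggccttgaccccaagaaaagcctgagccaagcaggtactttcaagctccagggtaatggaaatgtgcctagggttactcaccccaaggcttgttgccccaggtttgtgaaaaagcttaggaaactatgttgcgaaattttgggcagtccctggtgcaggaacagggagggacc
C1qb: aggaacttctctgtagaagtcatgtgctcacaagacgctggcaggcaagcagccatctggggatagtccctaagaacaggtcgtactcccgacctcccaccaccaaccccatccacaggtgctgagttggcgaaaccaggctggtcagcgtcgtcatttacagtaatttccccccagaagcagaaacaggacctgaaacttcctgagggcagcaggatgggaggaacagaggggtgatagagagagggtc

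Windows of this kind were found for 6 of the 9 genes, C1qb, C1qc, C3, Cfp, C3ar1 and C5ar1. On both strands TTCNNNGAA, the spacing bound by most STAT factors, was in 7.02% of 32851 promoters, and the motif favoured by STAT6, in which TTC and GAA are 4 bases apart, was in 5.85%. The PU.1 motif GAGGAAGT was in 2.44% and ACGTG, the core of the hypoxia response element, in 16.6%. These 6 windows held a single match, GAGGAAGT on the opposite strand of C1qc, where it reads ACTTCCTC at positions -195 to -188 from the start site. No match says only that these letters are not in this window.

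In control macrophages the 9 genes covered a wide range of levels, with C1qb highest at 1986 ± 347 FPKM (SD, n = 3) and Cfb lowest at 0.191 ± 0.102. Between them, in falling order, came C1qc (697), C1qa (419), Cfp (375), C3ar1 (204), C5ar1 (111), C3 (36.9) and C4b (0.318 FPKM). The neighbours C1qa and Cfp overlapped between libraries, as did C4b and Cfb. With IL-4 the order was C1qb, Cfp, C1qc, C1qa, C3ar1, C3, C5ar1, C4b and Cfb, in which C1qc overlapped C1qa and C3 overlapped C5ar1. With IL-6 the order was C1qb, C1qa, C1qc, Cfp, C3, C3ar1, C5ar1, C4b and Cfb, and no neighbours overlapped.

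**Figure D1:**
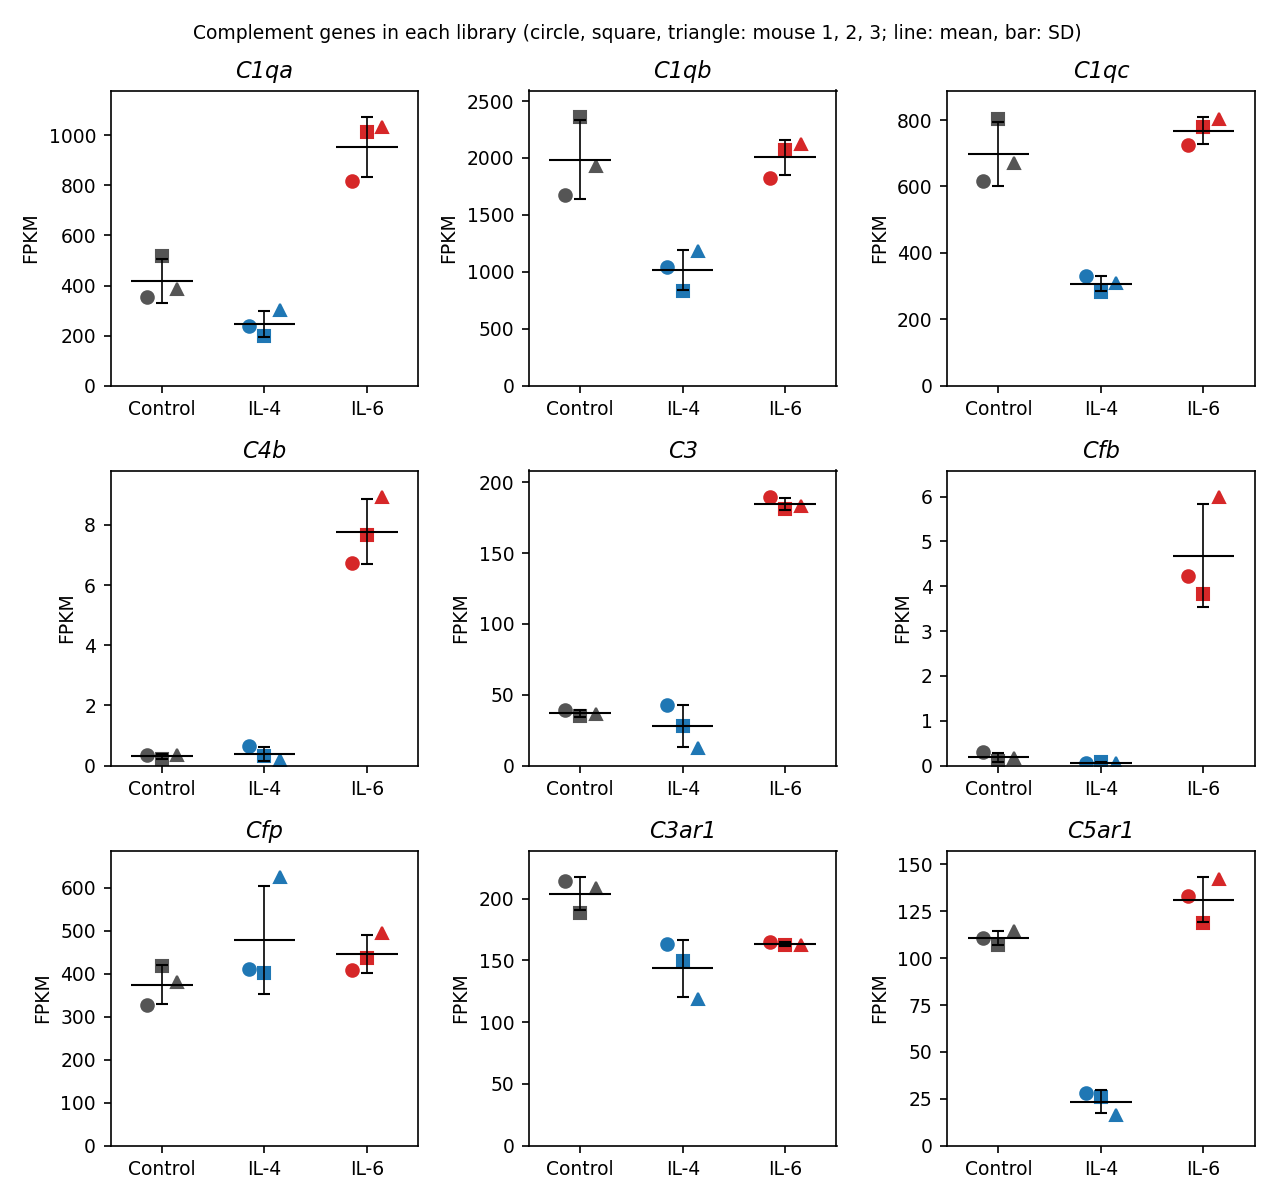
Level of each of the 9 complement genes in FPKM (vertical axes, linear, each from 0) in control, IL-4 and IL-6 macrophages. Points are libraries, shaped by mouse number, and lines and bars are the mean and SD of 3. C4b, C3 and Cfb are high in the 3 IL-6 libraries alone, C5ar1 is low in the 3 IL-4 libraries alone, and the IL-6 libraries of C1qa lie above all control libraries whereas those of C1qb and C1qc overlap them.

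With IL-4 C5ar1 and C1qc were called lower, and C1qa, C1qb and C3ar1 were lower by adjusted p alone. Of the 9 genes 2 were called, both lower, where 13.9% of all genes tested were called, 5.02% higher and 8.89% lower. The median log2 fold change of the 9 was -0.73, against -0.20 over all genes tested. After rescaling of each library to a common median ratio, the median of all genes was -0.01 and calls over all genes were divided as 834 higher and 874 lower in place of 644 and 1140, so IL-4 changes are to be read relative to that shift. Against control, C1qa, C4b, C3 and Cfb were called higher in the IL-6 libraries. These 4 calls stood against 5.38% of all genes called, 3.49% higher and 1.89% lower, and the medians were 0.26 for the 9 genes and -0.00 for all. C4b and Cfb, which passed the filter only through the IL-6 libraries, are among these 4 calls and among the 6 calls given next. Between the cytokines, 6 of the 9 genes were called, all higher with IL-6, against 20.4% of all genes called, 13.6% higher and 6.82% lower. By adjusted p alone 5, 4 and 7 of the 9 genes passed for IL-4, IL-6 and the cytokines against each other, where 24.8%, 8.4% and 34.1% of all genes did. Both cytokine comparisons used the same 3 control libraries.

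**Figure D2:**
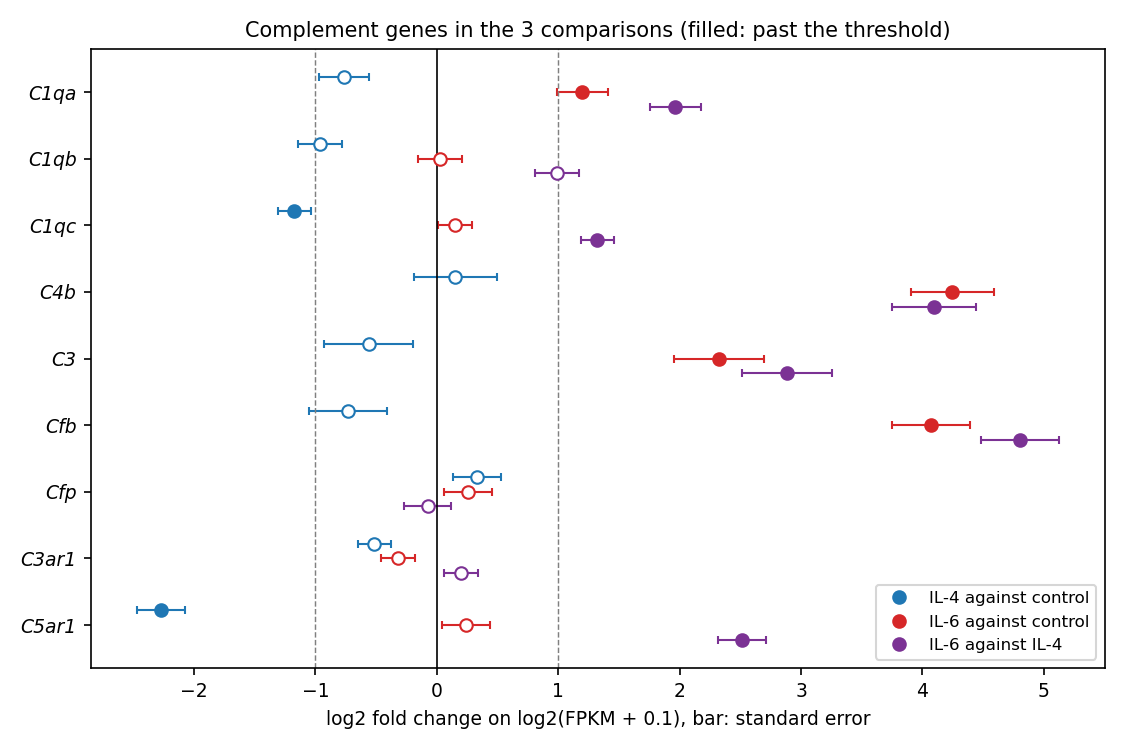
Log2 fold change of each complement gene on log2(FPKM + 0.1) (horizontal axis) for IL-4 against control, IL-6 against control and IL-6 against IL-4, with standard errors from limma. Filled points passed both thresholds and dashed lines mark a log2 fold change of 1 in either direction. C4b and Cfb lie above 4 in both comparisons that involve IL-6, and C5ar1 lies at -2.27 for IL-4 against control.

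C1qa, C1qb and C1qc encode the A, B and C chains of C1q, and all lie on the minus strand of chromosome 4 (GRCm38, GENCODE M21). C1qb spans 136880129 to 136886187, C1qc 136889804 to 136893065 and C1qa 136895917 to 136898803. None of their transcripts shared a stretch of 50 bases with another gene. C1qa stood at 354, 517 and 385 FPKM in Control #1, #2 and #3, at 239, 199 and 303 in the IL-4 libraries and at 817, 1012 and 1031 in the IL-6 libraries. The 3 groups did not overlap, with IL-4 lowest and IL-6 highest.
C1qb stood at 1670.3, 2357 and 1929.6 FPKM across controls, 1042, 830.3 and 1181 across IL-4 and 1826, 2066 and 2121 across IL-6 libraries. C1qc stood at 616, 803 and 671 FPKM across controls, 329.8, 283 and 311 across IL-4 and 724, 778 and 803 across IL-6 libraries. For both genes every IL-4 library was under every control library, while the IL-6 and control libraries overlapped.

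With IL-4 the 3 chains stood at 0.590 (C1qa), 0.513 (C1qb) and 0.442 (C1qc) of the control mean. C1qc was called, with a log2 fold change of -1.17 (SE 0.137, limma adjusted p = 0.000509). C1qb at -0.96 (SE 0.183, adjusted p = 0.00614) and C1qa at -0.76 (SE 0.208, adjusted p = 0.0298) passed the p threshold but not the fold threshold. The call of C1qc was lost with median-ratio rescaling, at a log2 fold change of -0.97 (adjusted p = 0.00592). Without Control #1 or without IL-4 #3 C1qb passed both thresholds, at -1.08 in each case. In IL-4 #1, the IL-4 library of the same set as the controls, the levels were 0.570, 0.525 and 0.473 of the control mean for C1qa, C1qb and C1qc. The macrophage markers moved in the same direction with IL-4, and their part in these differences was not tested.

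With IL-6 only C1qa of the chains was called against control, at 2.28 times the control mean with a log2 fold change of 1.20 (SE 0.208, adjusted p = 0.0107). The log2 fold changes of C1qb and C1qc were 0.03 (adjusted p = 0.951) and 0.15 (adjusted p = 0.609), that of C1qb turning its sign under quantile normalization (-0.12) and without Control #1 (-0.092) or IL-6 #3 (-0.017). The call of C1qa was lost without Control #3 (log2 fold change 1.15, adjusted p = 0.0570), without IL-6 #2 (1.15, 0.0559), without IL-6 #3 (1.14, 0.0568) and with the library set as a term (1.16, 0.208), the size staying close to the full value in each. Against IL-4, C1qa was higher by 1.96 (adjusted p = 0.000247) and C1qc by 1.32 (adjusted p = 0.000192), and both were called. C1qb was higher by 0.99 (SE 0.183, adjusted p = 0.00413), just short of the fold threshold. Within the set that held IL-4 #2, IL-4 #3 and the IL-6 libraries the IL-6 mean was 3.80 times the IL-4 mean for C1qa, 1.99 times for C1qb and 2.59 times for C1qc.

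C1qa also stood differently relative to the other chains in the 3 groups. The ratio of C1qb to C1qa was 4.72, 4.56 and 5.01 in the control libraries, 4.36, 4.18 and 3.90 in the IL-4 libraries and 2.23, 2.04 and 2.06 in the IL-6 libraries. Every IL-6 library was below every other library. The ratio of C1qc to C1qa was 1.68 ± 0.110 across controls, 1.28 ± 0.218 across IL-4 and 0.811 ± 0.0653 across IL-6 libraries (SD, n = 3). The ratio of C1qb to C1qc was 2.84 ± 0.115, 3.30 ± 0.448 and 2.61 ± 0.0745 in the same order. On the log2 scale C1qa relative to the mean of C1qb and C1qc was higher by 1.11 in IL-6 than in control libraries, by 0.81 in IL-6 than in IL-4 libraries, and by 0.30 in IL-4 than in control libraries. C1qb relative to C1qc differed by 0.21 between IL-4 and control libraries, by -0.12 between IL-6 and control libraries and by -0.33 between the cytokines, so that with IL-4 the shift of C1qa was close in size to that between the other chains. Each of these 6 differences had an exact two-sided permutation p = 0.1 (n = 3 and 3), the smallest that 3 libraries against 3 can give. This ratio was chosen after the levels had been seen. The IL-6 difference was 0.96 with the library set as a term and 1.08 to 1.17 on leaving out single libraries. Summed over the 3 chains the level was 3101 ± 528 FPKM across controls, 1572 ± 244 across IL-4 and 3726 ± 314 across IL-6 libraries.

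**Figure D3:**
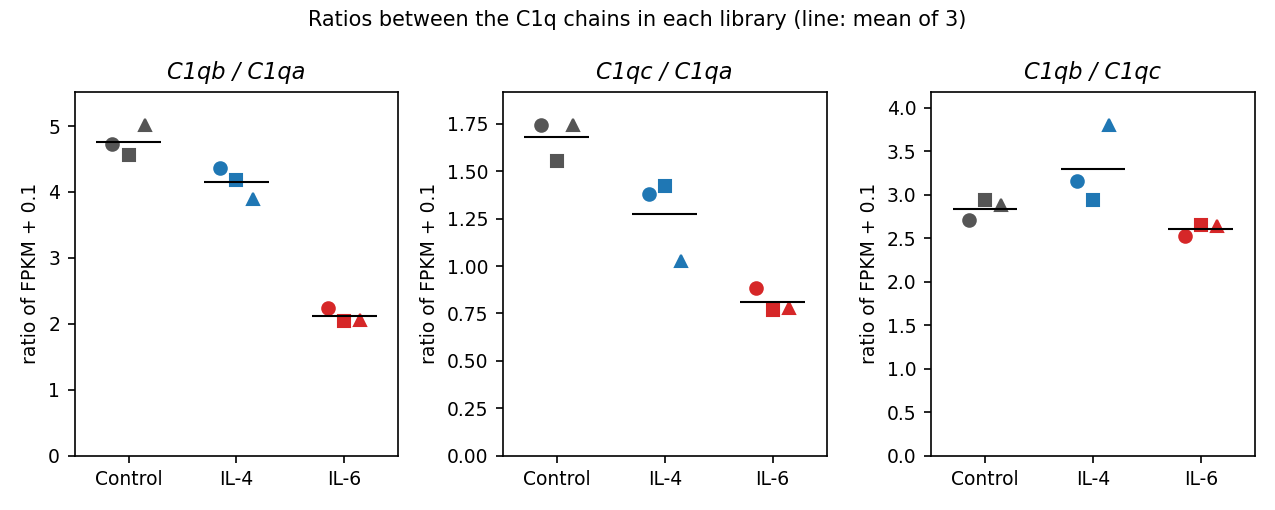
Ratios between the C1q chain genes in each library, from FPKM + 0.1 (vertical axes, linear, from 0), for control, IL-4 and IL-6 macrophages. Points are libraries, shaped by mouse number, and lines are means of 3. The ratios to C1qa are lowest in the 3 IL-6 libraries, at 2.04 to 2.23 for C1qb and 0.769 to 0.886 for C1qc, whereas C1qb over C1qc ranges between 2.52 and 3.80 over all 9.

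C4b encodes complement C4, which is cleaved after C1q or lectin binding and becomes a subunit of the enzyme that cleaves C3. It spans 34728380 to 34743882 on the minus strand of chromosome 17. Its level was 0.367, 0.223 and 0.365 FPKM across controls, 0.647, 0.330 and 0.198 across IL-4 and 6.75, 7.66 and 8.91 across IL-6 libraries. The fragments behind these values numbered 38 to 73 in control, 45 to 126 with IL-4 and 1340 to 1559 with IL-6. The IL-6 libraries lay far above the rest, and control and IL-4 libraries overlapped. The IL-6 mean was 24.4 times the control mean, with a log2 fold change of 4.25 (SE 0.342, limma adjusted p = 0.000306), and the change with IL-4 was 0.15 (adjusted p = 0.775), with a sign that turned without Control #2 (-0.027) or IL-4 #1 (-0.20). Of the 50-base stretches of C4b transcripts 34.6% also occur in C4a, its close copy, so that fragments of this pair cannot be fully separated. C4a was between 0.0493 and 0.198 FPKM in the 9 libraries, below every IL-6 value of C4b.

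C3 encodes the central component, which is deposited on targets and cleaved to C3a and C3b, and spans 57203970 to 57228136 on the minus strand of chromosome 17. Its level was 39.3, 34.7 and 36.7 FPKM across controls, 42.7, 28.3 and 12.7 across IL-4 and 189, 181 and 183 across IL-6 libraries. The IL-6 libraries were close to each other and above all others. The IL-4 libraries were spread on both sides of control, with IL-4 #3 lowest. The IL-6 mean was 5.01 times the control mean, with a log2 fold change of 2.32 (SE 0.369, adjusted p = 0.00734). The change with IL-4 was -0.56 (SE 0.369, adjusted p = 0.306). It was -0.081 without IL-4 #3 and -0.95 without IL-4 #1, and its sign turned to 0.21 (adjusted p = 0.830) with the library set as a term.

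Cfb encodes factor B, the protease of the alternative pathway enzyme that cleaves C3, and spans 34856374 to 34862518 on the minus strand of chromosome 17. Its level was 0.304, 0.106 and 0.161 FPKM across controls, 0.0621, 0.0818 and 0.0621 across IL-4 and 4.22, 3.84 and 5.98 across IL-6 libraries. These rest on 9 to 30 fragments in control, 6 to 7 with IL-4 and 354 to 519 with IL-6. The 3 groups did not overlap, but at these depths the control and IL-4 values carry wide counting error. The IL-6 mean was 24.6 times the control mean, with a log2 fold change of 4.07 (SE 0.321, adjusted p = 0.000241). The change with IL-4 was -0.73 (SE 0.321, adjusted p = 0.137). Its exons overlap those of Gm20547, and 73.0% of its 50-base stretches occur in that gene, so the division of shared fragments between them is uncertain. Gm20547 was listed at 0 in 8 libraries and at 0.00834 FPKM in IL-6 #3.

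C4b, C3 and Cfb were also called higher with IL-6 than with IL-4, by 4.10 (adjusted p = 6.39e-05), 2.88 (adjusted p = 0.00066) and 4.80 (adjusted p = 1.77e-05) on the log2 scale. Within the set of IL-4 #2, IL-4 #3 and the IL-6 libraries, the IL-6 mean was 29.4 times the IL-4 mean for C4b, 8.99 times for C3 and 65.1 times for Cfb. With the library set as a term the calls against control held, at log2 fold changes of 5.31 for C4b (adjusted p = 0.00403), 3.49 for C3 (adjusted p = 0.0241) and 3.99 for Cfb (adjusted p = 0.0297). In the same set as control, IL-4 #1 stood at 2.03, 1.16 and 0.326 times the control mean for C4b, C3 and Cfb. The marker list of the hepatocyte, the cell that supplies these proteins to plasma, stayed at or under 0.716 fragments per 1000000, as given above. Which cells the transcripts of these 3 genes came from was not tested.

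Cfp encodes properdin, which stabilizes the alternative pathway enzyme, and spans 20925454 to 20931555 on the minus strand of chromosome X. Its level was 327, 418 and 380.5 FPKM across controls, 412, 402 and 625 across IL-4 and 409, 437 and 495 across IL-6 libraries. The groups overlapped in every comparison, and IL-4 #3 was the highest library. The log2 fold changes were 0.33 for IL-4 (SE 0.195, adjusted p = 0.257), 0.26 for IL-6 (SE 0.195, adjusted p = 0.530) and -0.08 for IL-6 against IL-4 (adjusted p = 0.768). No sign was stable, with -0.040 for IL-4 against control and 0.31 between the cytokines (adjusted p = 0.0369) under quantile normalization, -0.026 for IL-6 against control with the library set as a term, and 0.13 for IL-6 against IL-4 without IL-4 #3. Like C1qb and C3ar1, Cfp had no call in any comparison, whereas Cfb of the same pathway as Cfp was called with IL-6. Within sets, IL-4 #1 stood at 1.10 times the control mean and the IL-6 mean at 0.871 of that of IL-4 #2 and IL-4 #3.

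C3ar1 encodes the receptor for C3a and spans 122847138 to 122856161 on the minus strand of chromosome 6. Its level was 214, 189 and 208 FPKM across controls, 163, 149 and 118 across IL-4 and 165, 162 and 162 across IL-6 libraries. All 6 cytokine-treated libraries were under all 3 control libraries, and the IL-4 and IL-6 libraries overlapped. With IL-4 the log2 fold change was -0.52 (SE 0.138, limma adjusted p = 0.0272), which passed the p threshold but not the fold threshold. With IL-6 it was -0.32 (SE 0.138, adjusted p = 0.233). IL-6 libraries exceeded IL-4 libraries by 0.20 (adjusted p = 0.280), which became -0.0061 with median-ratio rescaling. Within sets, IL-4 #1 stood at 0.801 of the control mean and the IL-6 mean at 1.22 times that of IL-4 #2 and IL-4 #3.

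C5ar1 encodes the main receptor for C5a and spans 16246743 to 16259540 on the minus strand of chromosome 7. Its level was 111, 107 and 114 FPKM across controls, 28.3, 25.9 and 16.4 across IL-4 and 133, 119 and 142 across IL-6 libraries. The IL-4 libraries were far under the others, and the IL-6 libraries were all slightly above control. The IL-4 mean was 0.212 of the control mean, with a log2 fold change of -2.27 (SE 0.198, adjusted p = 0.000135), the largest fall among the 9 genes. The change with IL-6 was 0.24 (SE 0.198, adjusted p = 0.564), and IL-6 exceeded IL-4 by 2.51 (adjusted p = 4.87e-05). The fall was also present between IL-4 #1 and the controls of its set, at 0.255 of their mean, and the IL-6 mean was 6.21 times that of IL-4 #2 and IL-4 #3. With the library set as a term it was -1.97 (adjusted p = 0.00325). Granulocytes also carry this receptor, and the summed level of the granulocyte and precursor list was likewise lowest in the IL-4 libraries, as given above. The part of that list in the difference was not tested.

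The wider pathway was followed with a list of 48 complement genes that includes these 9, so every count and median of the list includes them. Of the 48 genes 22 passed the filter on low values and 26 did not. With IL-4 1 gene of the list was called higher and 8 lower, with IL-6 8 higher and 1 lower, and in IL-6 against IL-4 12 higher and 1 lower, where 13.9%, 5.38% and 20.4% of all genes tested were called. The median log2 fold changes were -0.65, 0.25 and 1.45, against -0.20, -0.00 and 0.22 over all genes tested. By role, with IL-6 the calls were 3 of 5 tested classical pathway genes, 2 of 3 genes of C3 and the alternative pathway, 2 of 4 regulators and 1 of 2 lectin pathway genes, all higher, and 1 of 7 receptors, lower. C1qa, C4b, C3 and Cfb of the 9 genes are among the IL-6 calls of the first 2 roles. Of these, C4b and Cfb were tested only because their IL-6 libraries carried them past the filter, so their calls add little to these counts. Among the 7 terminal components, only C8g was tested.

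**Figure D4:**
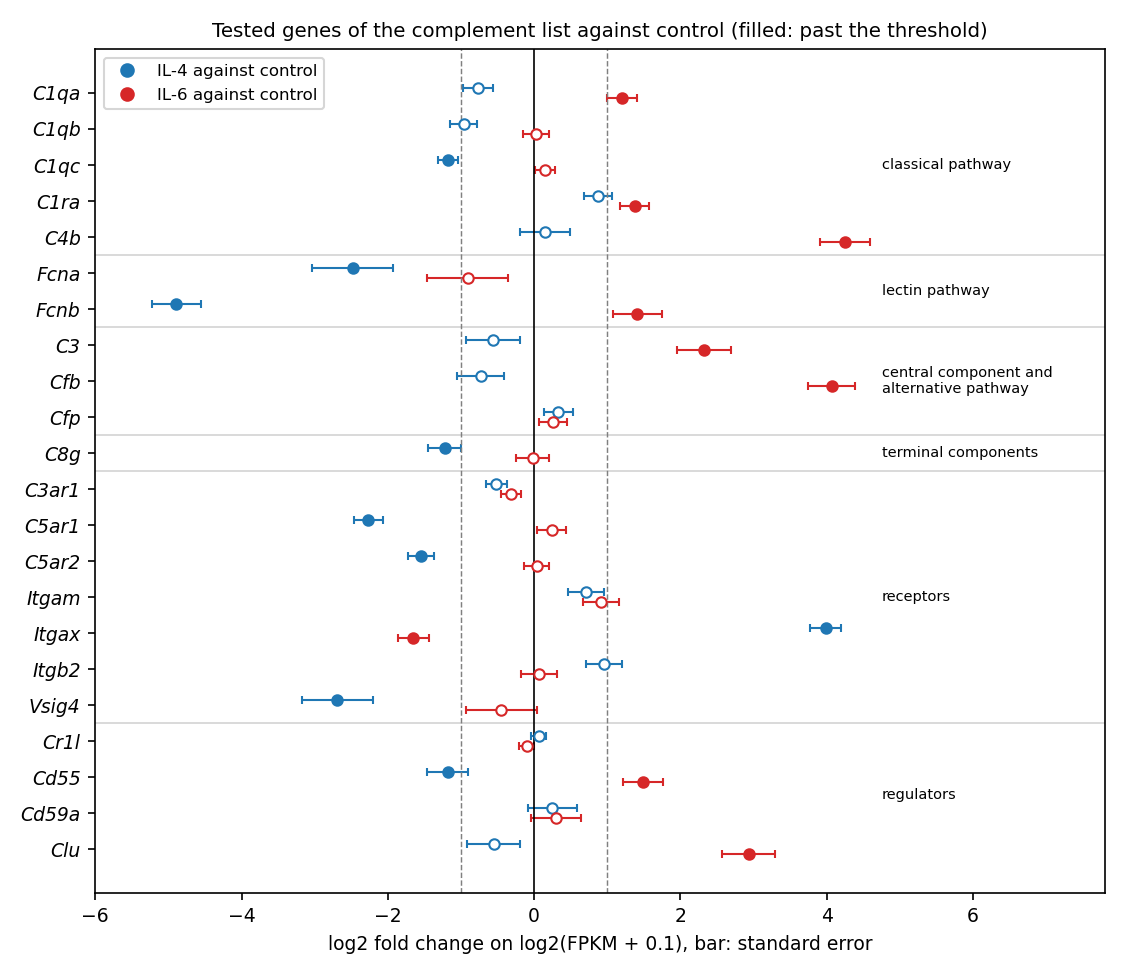
Log2 fold change on log2(FPKM + 0.1) (horizontal axis) of the 22 tested genes of the complement list, ordered by role, for IL-4 and IL-6 against control, with standard errors from limma. Filled points passed both thresholds, marked by dashed lines for the fold. Filled IL-4 points lie to the left except for Itgax, and filled IL-6 points lie to the right except for Itgax.

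The receptor called with the other sign was Itgax, the alpha chain of the iC3b receptor CR4. From 20.5 ± 2.93 FPKM in the control cells it rose to 334 ± 92.1 under IL-4 (SD, n = 3), a log2 change of 3.99 (adjusted p = 1.07e-05), and fell to 6.40 ± 0.0949 with IL-6, a change of -1.65 (adjusted p = 0.00291) whose call was lost with the library set as a term (-1.34, adjusted p = 0.152). Itgb2, the beta chain of CR4, and Itgam, the alpha chain of CR3, are given here after their values were seen. Itgb2 was at 289.6 ± 15.9 across controls and 587 ± 202 across IL-4 libraries, a change of 0.95 (adjusted p = 0.0251) that was short of the fold threshold and passed both with median-ratio rescaling (1.15) or without IL-4 #3 (1.28). Itgam changed by 0.71 (adjusted p = 0.0701), and every IL-4 library of both genes was above every control library. The rise of Itgam was not particular to IL-4. With IL-6 it changed by 0.91 against control (adjusted p = 0.0608), again with every library above every control library. Its IL-6 and IL-4 libraries overlapped (0.20, adjusted p = 0.518). Itgb2 changed by 0.07 with IL-6 (adjusted p = 0.900). Of the transcript stretches of Itgam 66.3% also occur in Gm49368, so its level is uncertain. Itgax is thus opposite in sign to C5ar1 with IL-4. C5ar2, a further receptor for C5a that does not couple to G proteins, followed C5ar1, at 5.52 ± 0.399 across controls, 1.84 ± 0.357 across IL-4 and 5.66 ± 0.625 across IL-6 libraries, a change of -1.55 with IL-4 (adjusted p = 0.000424). Vsig4, a C3b and iC3b receptor of tissue macrophages, was at 1.73 ± 0.723 FPKM in control and 0.169 ± 0.0311 with IL-4, the latter resting on 7 to 10 fragments, a change of -2.69 (adjusted p = 0.00509).

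Of the 4 tested regulators 1 was called lower with IL-4 and 2 were called higher with IL-6. Cd55, which dissociates the enzymes that cleave C3, was at 1.42 ± 0.228, 0.595 ± 0.241 and 4.14 ± 0.449 FPKM, with changes of -1.18 (adjusted p = 0.0162) and 1.49 (adjusted p = 0.0146), calls that held in 11 of 18 and 13 of 18 alternatives. Clu, clusterin, which binds the terminal complex in fluid phase, was at 1.26 ± 0.549 in control and 10.2 ± 3.70 with IL-6, a change of 2.93 (adjusted p = 0.00252). Its IL-6 call was lost with the library set as a term (2.97, adjusted p = 0.101). With that term the list genes still called higher with IL-6 were C4b, C3, Cfb and Fcnb. Cd55 lost its IL-4 call without Control #1, Control #2 or IL-4 #3, the last by its fold change of -0.88, and its IL-6 call without Control #2, Control #3, IL-6 #2 or IL-6 #3 (adjusted p up to 0.0736).

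Of the other classical and lectin pathway genes, C1ra, a protease of the C1 complex, averaged 0.834 ± 0.136 FPKM across controls and 2.31 ± 0.231 across IL-6 libraries, a change of 1.37 (adjusted p = 0.00403) that was not called with a pseudocount of 1 (0.85) or with the library set as a term (1.71, adjusted p = 0.0635), with 50.8% of its 50-base stretches shared with other genes. Fcna and Fcnb are ficolins, recognition molecules of the lectin pathway. Fcna fell with IL-4 from 27.8 ± 16.4 to 4.24 ± 1.10 FPKM, a change of -2.48 (adjusted p = 0.0132) that missed the threshold without Control #3 (adjusted p = 0.0538) and with the library set as a term (-2.80, adjusted p = 0.0752). Fcnb had 161 to 217 fragments in the control libraries, 0 to 7 in the IL-4 libraries and 436 to 584 in the IL-6 libraries. It was called lower with IL-4 (adjusted p = 3.58e-05) and higher with IL-6 (1.41, adjusted p = 0.0381), the latter lost with the mouse number as a replicate block (adjusted p = 0.0803) and without any single control or IL-6 library (0.0861 to 0.143), and kept in 8 of 19 alternatives. C8g, the gamma chain of C8, fell with IL-4 from 2.24 ± 0.144 to 0.924 ± 0.262 FPKM, a change of -1.22 (adjusted p = 0.00542). The call of C8g was lost with the library set as a term (-0.85, adjusted p = 0.0992), with a pseudocount of 1 (-0.76) and under quantile normalization (-0.93). C8a, C8b and C9, other subunits of the complex that C8 enters, were under the filter in all groups.

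Over the 9 libraries the 9 genes fell into patterns that are given as descriptions, since libraries of one group share their treatment. C1qb and C1qc followed each other with Pearson's r = 0.972 and C5ar1 followed C1qc with 0.965 on log2(FPKM + 0.1). C4b, C3 and Cfb formed a further pattern, with r = 0.960 for C4b and C3, 0.969 for C4b and Cfb, and 0.943 for C3 and Cfb. C1qa lay between them, at 0.911 with Cfb and 0.849 with C1qc, and Cfp ran against C3ar1 with -0.859.

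Outside the complement list, the 2 tested genes with the most similar pattern over the 9 libraries were named for each gene. They were Ifitm2 (0.988) and Pf4 (0.987) for C1qa, Tmem9 (0.984) and Aif1 (0.983) for C1qb, and Cybc1 (0.996) and Rnpep (0.995) for C1qc. Trib1 (0.992) and Ccr2 (0.991) were closest to C3, Gja1 (0.995) and Emb (0.990) to Cfb, and Gm44751 (0.992) and Dmpk (0.990) to C4b. Sub1 (0.948) and Arpc1b (0.945) were closest to Cfp, which had the weakest likeness. Scap (0.995) and Tlr7 (0.994) were closest to C3ar1, and Il17ra (0.996) and Csf3r (0.996) to C5ar1. Csf3r, the receptor for granulocyte colony-stimulating factor, stood at means of 108 FPKM across controls, 25.9 across IL-4 and 137 across IL-6 libraries, close to the levels of C5ar1. Ccr2, a chemokine receptor of monocytes, stood at 3.81, 1.72 and 41.8 FPKM.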

How the data were processed

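RNA was sequenced from 9 libraries of mouse bone marrow-derived macrophages. The authors deposited 1 table of FPKM for 53379 genes. The study's methods and the submitters' processing notes name STAR 2.4.2a, Cufflinks 2.2.1 and GRCm38. The methods also name GENCODE M5. With exon lengths from GENCODE M21, which matched 50604 identifiers (94.8%), 100% of 80146 low values (up to 20 fragments) were whole fragments within 0.05, which gave depths of 29988160 to 39909571 fragments per library. Which program and annotation made the table was not settled.

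Values were tested as log2(FPKM + 0.1) with limma 3.58.1 in R 4.3.3 (trend and robust), all 9 libraries in 1 fit, two-sided, over 12824 genes with a mean of at least 0.5 FPKM, with Benjamini-Hochberg adjustment. Genes were called where the adjusted p was below 0.05 and the log2 fold change reached 1 in size. On simulated data for IL-6 against control, with a log2 change of 2 in 200 genes, the test recovered 163 (81.5%) and made 2 false calls. This check covered that size of change alone.

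The 9 genes, the gene lists and the tests were chosen with earlier results of these data known. Named beside the 9 were list genes called in any comparison and, by Pearson's r, the 2 genes most like each. The library set was defined by whether the Paneth and goblet cell list was above 10 fragments per 1000000. The series' design states 3 mice, and numbers #1 to #3 were taken as the mouse. Deviations of same-numbered libraries from their group means correlated over tested genes at 0.521, -0.415 and 0.0777 for IL-4 with control, 0.408, 0.201 and 0.166 for IL-6 with control and 0.281, -0.0612 and 0.153 for IL-6 with IL-4. The separate cultures are not otherwise described, so p-values measure the spread between these libraries. Protein sequences and the promoters of C1qa, C4b and Cfb were not used here. 1 gene of the complement list is not reported here and was left out of its counts after the values had been seen.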

Additional observations from a re-analysis of the deposited data

How the results depend on the processing

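The numbers of the 9 genes called were 2 and 4 for IL-4 and IL-6 against control, and 6 between the cytokines. On leaving out single libraries they were 2 to 3, 3 to 4 and 6 to 7, and the complement list gave 8 to 12, 6 to 9 and 13 to 16 calls in place of 9, 9 and 13. The list had 6 calls with IL-6 without Control #3, without IL-6 #2 or without IL-6 #3. The IL-4 count of the 9 genes was 1 with median-ratio rescaling, 4 with quantile normalization, where C1qa (-1.06) and C1qb (-1.25) passed, and 5 by adjusted p alone, where the list gave 14. With a filter at a mean of 5 FPKM, under which C4b and Cfb were not tested, the IL-6 count was 2 and the list gave 5, 3 and 6 calls. With the library set as a term the list gave 4 calls for IL-6 against control. Signs turned for C3 (0.21, IL-4) and Cfp (-0.026, IL-6) with the library set, for Cfp (-0.040, IL-4) under quantile normalization and for C3ar1 (-0.0061, IL-6 against IL-4) with median-ratio rescaling. They turned also for C1qb (-0.12, IL-6) and Cfp (0.31, IL-6 against IL-4) under quantile normalization. On leaving out single libraries C4b with IL-4 ran from -0.20 to 0.46, C1qb with IL-6 from -0.092 to 0.16 and Cfp between the cytokines from -0.19 to 0.13. None of these had been called. The cause was not tested in these cases. Rescaling divided the calls over all genes in IL-6 against IL-4 as 1398 higher and 1165 lower by median ratio and as 1305 and 1260 by quantiles, in place of 1738 and 875.

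The mouse number as a replicate block left the counts of the 9 genes at 2, 4 and 6 and changed no call among them, and the complement list gave 9, 8 and 14. The limma-voom test on fragments also gave 2, 4 and 6, and 9, 9 and 13 for the list. The pseudocounts of 1 and 0.01, the absence of a filter and fits of only the groups compared changed no call among the 9 genes. The set term rests on IL-4 #1 against IL-4 #2 and IL-4 #3. The 3 libraries of each group and 6 to 30 fragments for Cfb outside the IL-6 group limit what could be detected there.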
